A study of Mus musculus with 18 samples.

Results

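Coding joins with long microhomology are repaired V(D)J recombination breaks in which the last bases read from one coding end are also the first bases read from the other. They were taken from the 12 coding-join libraries of the series as substrate junctions on the coding strand, with a prey position from 2800 to 3813, in which the bait and prey alignments overlapped on the read by 4 bp or more. The rule was met by 223 of 6903 coding joins, among 30937 junctions of all kinds. Libraries held 14 to 49 such joins among 330 to 1471 coding joins in DNA-PKcs -/- cells, and 6 to 23 among 166 to 831 in cells with DNA-PKcs. The rule used the overlap length itself, which is given below as a description and not as a finding. The libraries came from v-abl-transformed mouse B cell lines, labelled strain 129, that carried an integrated pMX-INV substrate, a retroviral construct in which RAG cuts a pair of recombination signals and the cell joins the ends. All lines thus share v-abl transformation and the substrate. The genotypes compared were CtIP A/A DNA-PKcs -/-, DNA-PKcs -/-, CtIP A/A and WT, with CtIP A/A meaning alanine on both alleles at a conserved ATM/ATR phosphorylation site. For each genotype, 2 libraries came from G2-arrested cells (3 µM STI571 for 24 h, then 10 µM RO3306 for 48 h) and 1 from G1-arrested cells (3 µM STI571 for 48 or 72 h, the label not saying which). STI571 inhibits the Abl kinase and RO3306 inhibits CDK1. The labels do not say that libraries came from separate cultures, so p values measure only the spread between these libraries, which may be technical, and a genotype cannot be told apart from the cell line that carries it.

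RAG cuts between a coding end and the heptamer of its recombination signal and leaves the coding end sealed as a hairpin. Artemis, recruited and activated by DNA-PKcs, opens the hairpin, and non-homologous end joining ligates the ends. Cells without DNA-PKcs join coding ends poorly, and joins made from resected ends often use short homologies. CtIP promotes end resection. Microhomology can be read at a join either because homologous bases paired or because both ends happened to carry the same base where they met.

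The base after each heptamer sets where coding sequence starts. With the heptamer CACTGTG on the forward strand at bait positions 1936 to 1942 and at prey positions 2806 to 2812, the first coding bases were 1943 on the bait and 2813 on the prey, in the coordinates of the substrate. An overlap counted as heptamer-reaching where the bait end was below 1943 or the prey position below 2813, and as wholly coding otherwise. By this division 67 of the 223 joins reached a heptamer and 156 were wholly coding. The words of bases below are overlaps that recur, ranked by mean share over the libraries with at least 10 joins of that class, which were the WT G1 library for heptamer-reaching joins and the 6 DNA-PKcs -/- libraries for wholly coding joins. Each is read from bait to prey, 5′ to 3′, every letter is shared by both ends, and the ends are given as bait and prey positions.
Bait 1941 to prey 2811, reaching both heptamers: TGCA
Bait 1967 to prey 2846, wholly coding: CTGG
Bait 1946 to prey 2839, wholly coding: AACGT
Bait 1993 to prey 2849, wholly coding: GCCG
Bait 1985 to prey 2817, wholly coding: CTAC
Bait 2020 to prey 2848, wholly coding: GGCCG
Bait 1955 to prey 2864, wholly coding: AATAA

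Overlap length was mostly close to the minimum of the rule. Just outside it lay 199 joins with 3 bp of overlap, 40 of them heptamer-reaching and 159 wholly coding. Just inside it lay 110 joins with 4 bp, 36 heptamer-reaching and 74 wholly coding. Overlaps of 4 or 5 bp made up 174 of the 223 joins, 28 joins had 7 bp or more, and the longest overlap was 11 bp.

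The label of long microhomology was checked base by base, because an overlap of alignments is a homology only where the read matches the substrate on both sides. Every overlap base matched in both alignments in 131 of 223 joins (58.7%). The matched count was 33 of 67 heptamer-reaching joins (49.3%) and 98 of 156 wholly coding joins (62.8%). Among 2033 coding joins with 1 to 3 bp of overlap, 2022 matched in full (99.5%). The overlap of the other 92 long joins contained at least 1 base that differed from the substrate in the bait alignment, the prey alignment or both. These 92 are called joins with a mismatched overlap below. They include 2 wholly coding joins, both in the DNA-PKcs -/- G1 library, in which a shorter run of 4 bp and of 6 bp was still exact homology. In 53 other wholly coding joins and 28 heptamer-reaching joins the exact homology was under 4 bp, so the data go against the label there, and the remaining 3 and 6 had no crossover point free of mismatch.

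The matched share declined with overlap length. Among wholly coding joins it was 60 of 74 at 4 bp, 30 of 48 at 5 bp, 7 of 17 at 6 bp, 1 of 9 at 7 bp, and none of the 8 joins with longer overlaps was matched. Over both classes, 1 of the 28 joins with 7 bp or more was matched. The longest overlaps of the files were therefore seldom exact homologies.

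**Figure D1:**
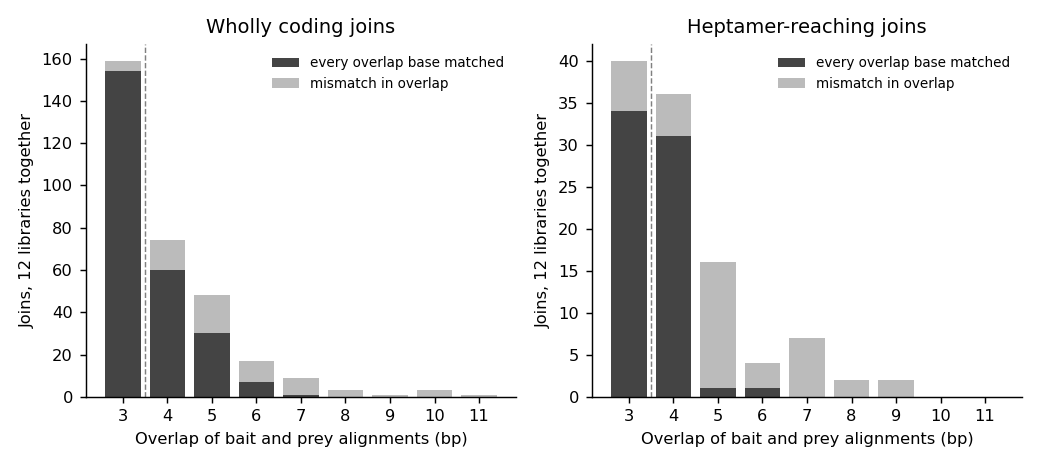
Number of coding joins (12 libraries together) against overlap of the bait and prey alignments in bp, for wholly coding joins on the left and heptamer-reaching joins on the right, split into overlaps matched at every base (dark) and overlaps with a mismatch (light). The dashed line marks the 4 bp limit of the rule, with 159 and 40 joins at 3 bp just outside it, and matched overlaps are nearly gone at 7 bp and above.

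Mismatched overlaps mostly allowed another reading with little homology. Of the 58 mismatched wholly coding joins, 51 had a single mismatch. Mismatches lay in the prey alignment alone in 35 of the 58, in the bait alignment alone in 19 and in both in 4. A crossover point at which the read has no mismatch on either side existed for 55 of them, and the homology at that point was 0 bp in 23 joins, 1 bp in 21, 2 bp in 4, 3 bp in 5, 4 bp in 1 and 6 bp in 1. Of the 34 mismatched heptamer-reaching joins, 28 had such a crossover point, with 0 bp of homology in 17, 1 bp in 5 and 2 bp in 6. For DNA-PKcs -/- cells 86 of 142 wholly coding long joins were matched, against 12 of 14 for cells with DNA-PKcs. For heptamer-reaching joins the matched counts were 13 of 21 in DNA-PKcs -/- cells and 20 of 46 in cells with DNA-PKcs.

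The heptamer-reaching joins were led by 1 join. Bait 1941 to prey 2811, with the overlap TGCA, made up 30 of the 67, and it was the only long join found in all 12 libraries. In it TG is the end of the bait coding sequence and also the last bases of the prey heptamer, while CA is the start of the prey coding sequence and also the first bases of the bait heptamer in the direction of the read. Once heptamer bases were trimmed, no overlap was left and no coding base had been lost at either end, so the join equals the intact bait end placed against the intact prey end. The read carried CTGCAG across the join in 29 of the 30 lines. The 4 bp overlap of this join is thus a match between each coding end and the opposite heptamer.

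This precise join was counted in 1, 3 and 3 lines in CtIP A/A DNA-PKcs -/- cells and in 1, 2 and 1 lines in DNA-PKcs -/- cells (both G2 libraries, then G1). It was counted in 3, 3 and 3 lines in CtIP A/A cells and in 2, 4 and 4 lines in WT cells. As a share of coding joins it ranged from 0.0949% to 0.446% over the 6 DNA-PKcs -/- libraries and from 0.481% to 2.41% over the 6 libraries with DNA-PKcs. These ranges did not overlap. With identical junctions counted once, the join was by construction 1 line in each of the 12 libraries. Its share then followed only the number of coding joins counted. That share ranged from 0.0688% to 0.305% in DNA-PKcs -/- libraries and from 0.122% to 0.613% in libraries with DNA-PKcs. These once-counted ranges overlap, but they cannot compare the groups. Pooled over all lines, it was 11 of 4652 coding joins (0.236%) in DNA-PKcs -/- cells and 19 of 2251 (0.844%) in cells with DNA-PKcs. Since this join was singled out after its counts were seen, no test is given. Of its 30 lines 18 repeat an identical junction in the same library. Within a library, its lines all differed in prey alignment length. They measured 52, 44, 80 and 53 bp in the second WT G2 library, and 78, 66, 65 and 36 bp in WT G1. Whether repeated lines are separate joins or copies made in amplification was not tested.

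A second recurrent join ran from bait 1940 to the same prey position, 9 lines in 8 libraries, and was named after its values were seen. Its overlap of 5 bp was mismatched in all 9 lines, and 8 lines read CTGCAC. A crossover without mismatch had 0 bp of homology in each, and at that point 3 prey coding bases are lost. The prey alignment itself starts at 2811, so it loses no coding base but carries 1 mismatch. Which reading holds was not tested. The other 28 heptamer-reaching joins fell into 23 pairs of ends, and 3 of them were matched. After trimming of heptamer bases, 54 of the 67 heptamer-reaching joins kept no overlap, 10 kept 1 to 3 bp and 3 kept 4 bp or more. Only the WT G1 library, with 17, held 10 or more heptamer-reaching joins, and there the precise join was 23.5% of them while each of the other pairs of ends was a single line.

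The wholly coding joins were spread over many sites. They fell into 96 pairs of ends, of which 68 were seen once and 28 were seen in at least 2 libraries, and these 28 held 88 of the 156 joins. Repeat lines were 2 of 156, against 19 of 67 among heptamer-reaching joins. The 6 pairs of ends named above held 33 of the 156 joins (21.2%), and every one of the 33 overlaps was matched. Only the 6 DNA-PKcs -/- libraries held 10 or more wholly coding joins, so these pairs were ranked there alone, and their counts in cells with DNA-PKcs are not a comparison. Of the 33, 28 were in DNA-PKcs -/- cells, as were 142 of all 156 (91.0%).

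The most frequent wholly coding join ran from bait 1967 to prey 2846 over CTGG, with 24 bp lost from the bait end and 33 bp from the prey end. It had 1, 2 and 2 lines in CtIP A/A DNA-PKcs -/- cells, 1, 1 and 1 in DNA-PKcs -/- cells, 0, 0 and 0 in CtIP A/A cells, and 0, 0 and 1 in WT cells. All 6 DNA-PKcs -/- libraries and the WT G1 library held it. The AACGT join, with 3 bp lost from the bait and 26 bp from the prey, had 1, 0 and 1 lines in CtIP A/A DNA-PKcs -/- cells, 1, 1 and 1 in DNA-PKcs -/- cells, 0, 1 and 1 in CtIP A/A cells, and 0, 0 and 1 in WT cells. It was the most widely shared wholly coding join, with 8 lines in 8 libraries, 5 in DNA-PKcs -/- cells and 3 in cells with DNA-PKcs. The GCCG join lost 50 bp and 36 bp and was seen in 4 DNA-PKcs -/- libraries and 1 CtIP A/A library, with 1 line each.

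The CTAC join lost 42 bp from the bait and only 4 bp from the prey, and the GGCCG join lost 77 bp and 35 bp. Both had 4 lines in 4 of the DNA-PKcs -/- libraries in which they were ranked, and none elsewhere. The AATAA join, with no G or C in its overlap, lost 12 bp and 51 bp and had 3 lines in 3 DNA-PKcs -/- libraries. With so few lines and this way of ranking, an absence from the libraries with DNA-PKcs shows no difference. Outside the 6, CCGC at bait 2019 to prey 2825 and AAGC at bait 2025 to prey 2853, named after their values were seen, had 4 lines in 4 libraries each, 1 of them with DNA-PKcs.

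The same words were reached from different ends. Overlaps of CTGG numbered 11 in 3 pairs of ends and those of GCCG 11 in 6 pairs of ends. GGCCG was counted 8 times, with 7 matched, and CCGC 6 times, with 4 matched. The 98 matched wholly coding overlaps used 36 different words. G and C made up 68.8% of their bases, while the first 100 bp of coding sequence held 49.0% G and C on the bait and 53.0% on the prey. This is a description of one substrate and was not tested.

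The substrate itself limits which homologies can be used. Within 100 bp of both borders, 6596 pairs of ends were enumerated for joins without inserted bases, each entered once with 1 homology length. Products that share both ends but differ in homology length were merged, so this is not the full number of products. Of the 6596, 30 (0.455%) were entered with 4 bp or more of exact homology. They were 18 at 4 bp, 9 at 5 bp, 3 at 6 bp and none longer. Among 3284 joins that lay in this window, matched in full and carried no insert, 75 (2.28%) had 4 bp or more. They were 66 joins in DNA-PKcs -/- cells (2.31%) and 9 joins in cells with DNA-PKcs (2.09%). Of the 75, 71 equalled an entry in ends and homology length, and these used 23 of the 30. The remaining 4 equalled no entry, and whether that came from the merging was not tested. The share per library was 1.05% to 3.03% in DNA-PKcs -/- cells and 0% to 3.57% in cells with DNA-PKcs. Both groups lay above the 0.455% of entries, but that share is not what random joining of ends would give. A longer homology can be reached from more crossover points than a shorter one, and each entry counted once. The gap therefore cannot show a preference for long homology. The values describe joins chosen by their overlap and carry no test.

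**Figure D2:**
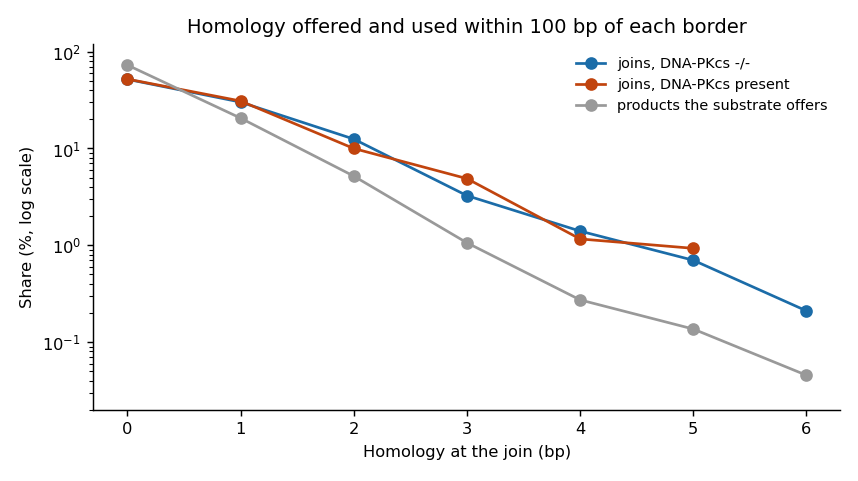
Share (%, log scale) against exact homology at the join in bp, for ends within 100 bp of both borders and without inserted bases. Blue is joins in DNA-PKcs -/- cells and orange is joins in cells with DNA-PKcs. Grey is the enumerated pairs of ends, labelled as products the substrate offers. Joins lie above the grey line from 1 bp upward, and no join with DNA-PKcs was seen at 6 bp. Each entry counts once whatever its number of crossover points, so the gap is no measure of preference.

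The ends of the wholly coding long joins lay well inside the coding sequence. In DNA-PKcs -/- cells the median loss was 44.0 bp from the bait and 36.0 bp from the prey (142 joins). In cells with DNA-PKcs it was 22.5 bp and 29.5 bp (14 joins). For matched overlaps alone the medians were 50 and 40 bp in DNA-PKcs -/- cells (86 joins) and 34.0 and 34.5 bp in cells with DNA-PKcs (12 joins). On the prey side, 63 of the 98 matched joins ended 21 to 60 bp from the border, 14 ended nearer, 5 ended at 61 to 100 bp and 16 lay beyond 100 bp. Bait alignments start at position 2121, which bounds the bait loss that can be read, and no coding join lost over 149 bp of the bait.

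**Figure D3:**
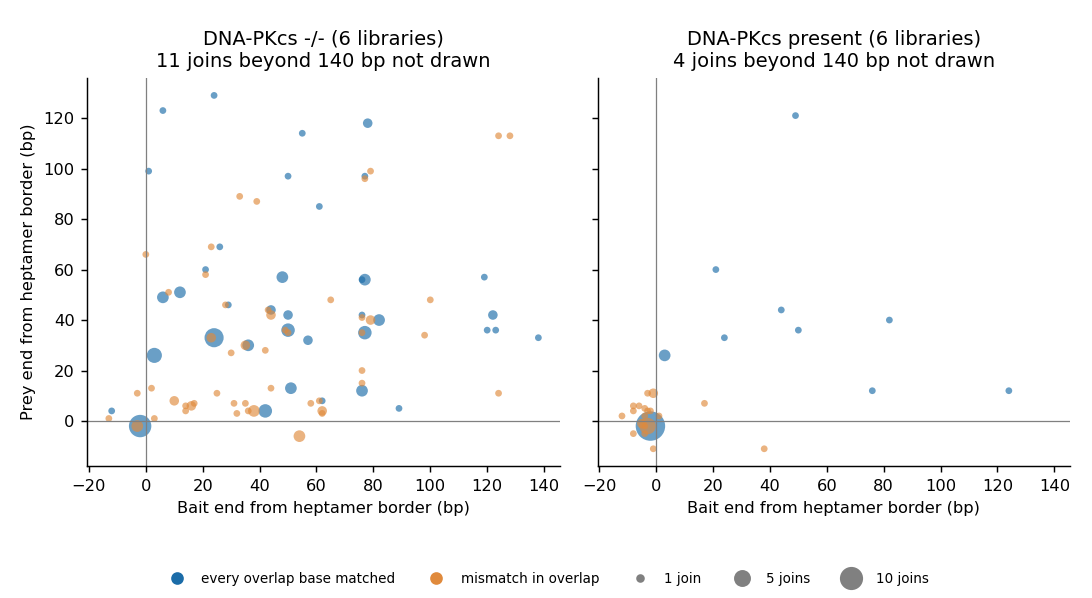
Position of the bait end (x axis) and prey end (y axis) of each long join, in bp from the heptamer border, with negative values inside the heptamer, for DNA-PKcs -/- cells on the left and cells with DNA-PKcs on the right. Area is proportional to the number of joins, and 11 and 4 joins with a prey end beyond 140 bp are not drawn. Lines from cells with DNA-PKcs cluster at the precise join, 2 bp inside both heptamers, while joins of DNA-PKcs -/- cells spread over the coding sequence. Of the 30 precise lines in both panels, 18 repeat an identical junction in the same library. Counted once, the precise join is by construction 1 line in each of the 12 libraries.

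Long joins were then set against wholly coding joins with 1 to 3 bp of overlap, within each of the 6 DNA-PKcs -/- libraries, the libraries with at least 10 wholly coding long joins. Long joins more often lost over 20 bp of the prey end, 72.5% ± 8.87 of long joins against 54.8% ± 8.62 of joins with 1 to 3 bp (SD, n = 6 libraries). The difference of 17.8 percentage points was positive in 6 of 6 libraries, with an adjusted p of 0.0469 in an exact two-sided sign-flip permutation test, whose smallest p is 0.0312. The bait end lost over 20 bp in 77.2% ± 11.7 of long joins and 68.2% ± 10.2 of joins with 1 to 3 bp. That difference of 8.95 percentage points was also positive in 6 of 6 libraries (exact permutation test, adjusted p 0.0469). Leaving out any 1 of the 6 libraries ended both calls, as 5 libraries cannot reach p below 0.0625. Repeat lines made up 1.48% of long joins and 0.843% of joins with 1 to 3 bp, a difference of 0.639 percentage points (exact permutation test, adjusted p 0.938). Long homologies can exist only where the substrate offers them, and the part of that in the deletion difference was not tested. Heptamer-reaching joins were left out of both classes, and a longer overlap near a border more easily reaches a heptamer. How far this choice shaped the difference was not tested either.

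**Figure D4:**
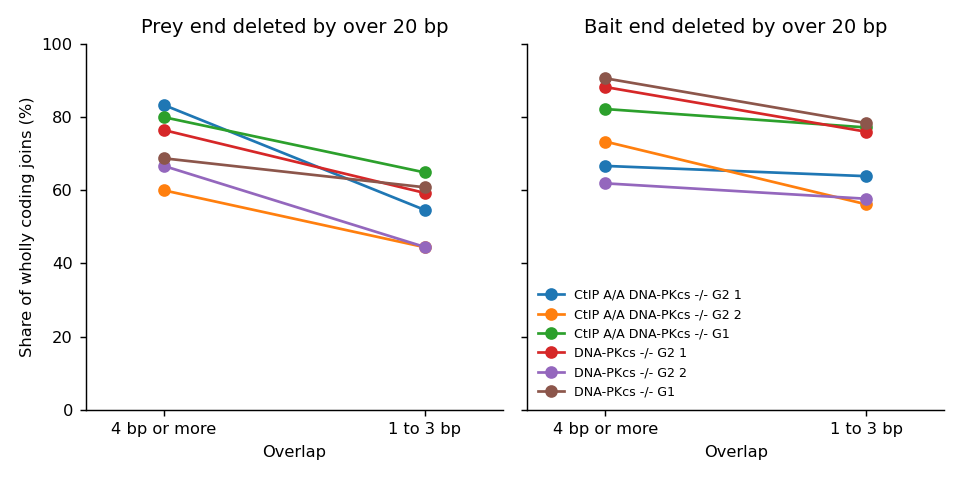
Share of wholly coding joins (%) that lost over 20 bp of the prey end (left) or bait end (right), for overlaps of 4 bp or more and of 1 to 3 bp, with 1 line for each of the 6 DNA-PKcs -/- libraries. The share was higher for long overlaps in 6 of 6 libraries at both ends.

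The comparison of DNA-PKcs -/- cells with cells that have DNA-PKcs asks how the kinase bears on the kind of long join. Wholly coding long joins made up 3.64%, 2.23% and 3.06% of coding joins in CtIP A/A DNA-PKcs -/- cells and 2.65%, 4.35% and 3.04% in DNA-PKcs -/- cells (both G2 libraries, then G1). They made up 0%, 0.346% and 0.714% in CtIP A/A cells and 0.712%, 1.20% and 0.722% in WT cells. All 6 DNA-PKcs -/- libraries were above all 6 libraries with DNA-PKcs. Averaged with equal weight over the 4 combinations of CtIP genotype and phase, the share was 3.13% in DNA-PKcs -/- cells and 0.642% in cells with DNA-PKcs. The difference was 2.49 percentage points (95% interval 1.84 to 3.64), with an adjusted p of 0.0208 in an exact two-sided permutation test, whose smallest unadjusted p is 0.0139. With matched overlaps alone it was 1.39 percentage points, 1.92% in DNA-PKcs -/- cells and 0.522% in cells with DNA-PKcs, and the adjusted p was the same by the exact permutation test.

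Heptamer-reaching long joins went the other way. They made up 0.606%, 0.893% and 0.272% of coding joins in CtIP A/A DNA-PKcs -/- cells and 0.623%, 0.621% and 0.190% in DNA-PKcs -/- cells. In CtIP A/A cells they made up 3.41%, 1.73% and 1.43%, and in WT cells 1.42%, 3.01% and 2.05%. Again the groups did not overlap. The average was 0.458% in DNA-PKcs -/- cells and 2.07% in cells with DNA-PKcs, a difference of -1.61 percentage points (95% interval -2.60 to -0.819, adjusted p 0.0208 by the exact permutation test). Counting each identical junction once made it -1.02 percentage points, and with matched overlaps alone it was -0.713 percentage points, 0.278% in DNA-PKcs -/- cells and 0.991% in cells with DNA-PKcs. Both kept an adjusted p of at most 0.0208 in the exact permutation test. The same direction was seen among all coding joins with the prey alignment starting 2 bp inside the heptamer, whatever their overlap or insert. Those were 173 of 4652 coding joins in DNA-PKcs -/- cells and 286 of 2251 in cells with DNA-PKcs, a difference not tested. Such a start shows that 2 read bases equal the heptamer, and whether they came from the heptamer was not tested. The direction was thus not particular to long overlaps.

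Because both classes moved in opposite directions, the total hid the change. Long joins of both classes were 3.59% of coding joins in DNA-PKcs -/- cells and 2.71% in cells with DNA-PKcs, a difference of 0.883 percentage points that did not pass the test (95% interval -0.284 to 2.17, exact permutation test, adjusted p 0.117). With the replicate number as a block, which for the G2 libraries is also the sequencing run, the same difference passed it (exact permutation test, adjusted p 0.0375). The choice of coding joins counted decided its direction. Joins with inserted bases made up 16.4% to 33.2% of coding joins in the DNA-PKcs -/- libraries and 64.8% to 70.7% in the libraries with DNA-PKcs. With inserted joins left out, long joins were 4.64% in DNA-PKcs -/- cells and 8.45% in cells with DNA-PKcs, a difference of -3.81 percentage points (exact permutation test, adjusted p 0.0208). Under the same choice wholly coding long joins stayed higher, 4.03% in DNA-PKcs -/- cells and 2.01% in cells with DNA-PKcs, and heptamer-reaching ones stayed lower, 0.604% in DNA-PKcs -/- cells and 6.44% in cells with DNA-PKcs. Counting identical junctions once brought the total to a difference of 1.45 percentage points with an adjusted p of 0.0167 in the exact permutation test, 3.49% in DNA-PKcs -/- cells and 2.04% in cells with DNA-PKcs.

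The makeup of the long joins differed accordingly. Of all long joins, wholly coding ones were 71.4% to 94.1% in the 6 DNA-PKcs -/- libraries and 0% to 33.3% in the 6 libraries with DNA-PKcs. The averages were 87.2% in DNA-PKcs -/- cells and 24.7% in cells with DNA-PKcs, a difference of 62.5 percentage points (95% interval 52.4 to 72.3, adjusted p 0.0208, exact permutation test). Long joins that kept no coding overlap once heptamer bases were trimmed were 5.88% to 19.0% in DNA-PKcs -/- libraries and 50% to 88.9% in libraries with DNA-PKcs. Their averages were 9.61% in DNA-PKcs -/- cells and 62.6% in cells with DNA-PKcs, a difference of -53.0 percentage points (95% interval -69.8 to -41.7, adjusted p 0.0208, exact permutation test). Each of these differences rests on small counts, 142 and 14 wholly coding joins and 21 and 46 heptamer-reaching ones in DNA-PKcs -/- cells and in cells with DNA-PKcs. The library of CtIP A/A cells with none among 264 coding joins allows a wholly coding share of up to 1.14%.

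**Figure D5:**
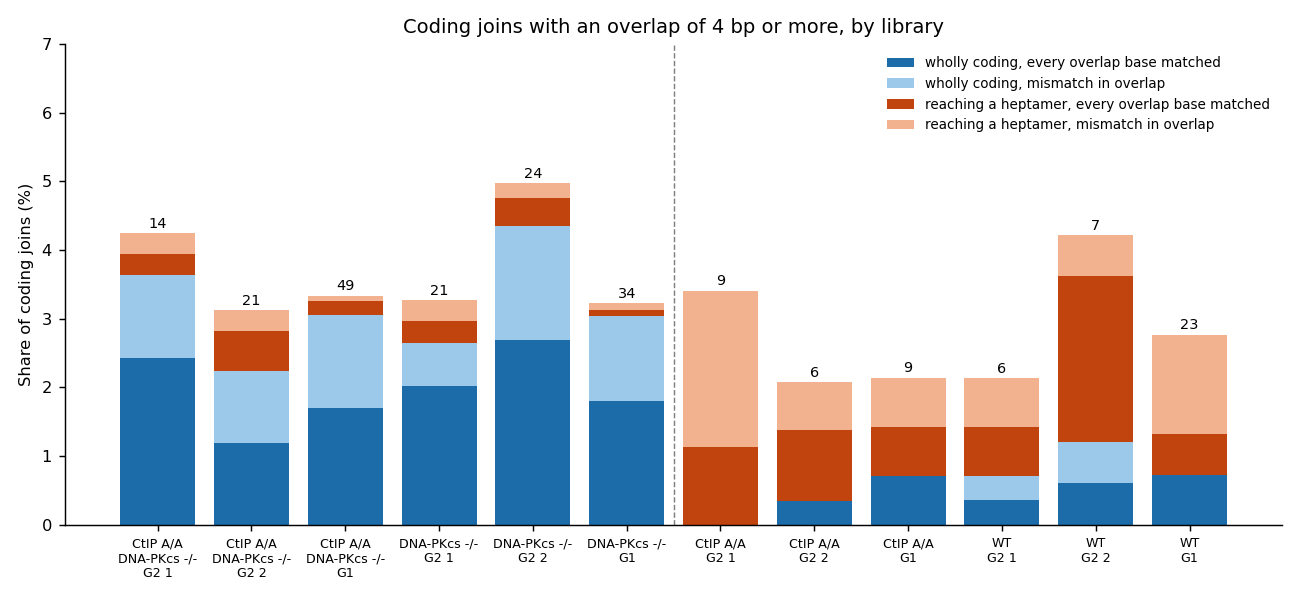
Share of coding joins (%) with an overlap of 4 bp or more in each of the 12 libraries, stacked by class and by whether every overlap base matched, with the number of such joins above each bar and the 6 DNA-PKcs -/- libraries left of the dashed line. Wholly coding joins fill most of the bar in every DNA-PKcs -/- library, and heptamer-reaching joins fill most of it in every library with DNA-PKcs.

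Microhomology of any length was also more frequent without DNA-PKcs, and this was not tested here. Wholly coding joins with at least 1 bp of overlap made up 26.3% to 42.0% of coding joins in DNA-PKcs -/- libraries and 8.71% to 11.8% in libraries with DNA-PKcs. Within these, 4 bp or more was reached by 9.16%, 8.47% and 8.20% in CtIP A/A DNA-PKcs -/- cells and by 7.14%, 10.3% and 8.06% in DNA-PKcs -/- cells. It was reached by 0%, 2.94% and 7.5% in CtIP A/A cells and by 6.45%, 12.5% and 6.32% in WT cells, so that the groups overlapped. The averages were 8.45% in DNA-PKcs -/- cells and 6.19% in cells with DNA-PKcs, and the difference of 2.26 percentage points did not pass the test (95% interval -1.32 to 7.35, exact permutation test, adjusted p 0.125). The interval also spans differences of several percentage points, so it does not show that the shares were alike. With matched overlaps alone the averages were 5.33% in DNA-PKcs -/- cells and 5.07% in cells with DNA-PKcs.

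The comparison of CtIP A/A cells with CtIP wild-type cells asks whether the alanine form changes long joins, and none of the 6 measures passed the test. Wholly coding long joins averaged 1.72% of coding joins in CtIP A/A cells and 2.05% in CtIP wild-type cells, a difference of -0.333 percentage points (95% interval -1.49 to 0.324). Heptamer-reaching ones averaged 1.25% in CtIP A/A cells and 1.27% in CtIP wild-type cells, with an interval of the difference from -0.649 to 1.13 percentage points. No unadjusted p was below 0.236 and no adjusted p below 0.467 in the exact permutation tests. By genotype, long joins of both classes numbered 84 of 2473 coding joins in CtIP A/A DNA-PKcs -/- cells and 79 of 2179 in DNA-PKcs -/- cells, then 24 of 973 in CtIP A/A cells and 36 of 1278 in WT cells.

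The comparison of G2-arrested with G1-arrested cells asks whether the phase of arrest changes long joins, and again none of the 6 measures passed. Phase cannot be told apart here from the drug treatment that set it. All G1 libraries also shared the sequencing run of the second G2 libraries. Wholly coding long joins averaged 1.89% of coding joins in G2 and 1.88% in G1, with an interval of the difference from -0.998 to 1.12 percentage points. Heptamer-reaching long joins averaged 1.54% in G2 and 0.984% in G1, higher in G2 for 4 of 4 genotypes, a difference of 0.556 percentage points (95% interval -0.563 to 1.67, exact permutation test over 81 arrangements, adjusted p 0.420). No unadjusted p was below 0.123, although the smallest that 81 arrangements can give is 0.0123. The intervals leave room for changes of up to 1.49 percentage points in wholly coding joins (CtIP) and 1.67 in heptamer-reaching joins (phase), the last as large as the DNA-PKcs difference in that class.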

How the data were processed

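Junctions of 12 libraries were read from the deposited tables, 1 junction per line, with positions in bp on the substrate or genome and on the read, per the file headers. A count of uncut bases, deposited by the authors as its own column, was 0 in every coding join. Per the labels' protocols, sonicated DNA was amplified from a biotinylated and then a nested bait primer, and BstBI removed germline substrate. Bowtie2 and mm10 are named in the submitters' processing notes. The junction caller, its versions and what it does with duplicates are not given in the sources used here. All 6 libraries of I-PpoI breaks were not analysed here.

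Depth was 166 to 1471 coding joins per library. The share in 1 library has a 95% interval by Wilson's method, and 0 lines leave room for 3, both covering counting error only, as the protocols mention no molecular identifiers. For example, the wholly coding share of 3.06% in CtIP A/A DNA-PKcs -/- G1 had an interval of 2.29% to 4.07%, and that of 1.20% in the second WT G2 library 0.331% to 4.29%. Run was told from read names. Overlap was computed from the read positions of both alignments. Mismatches were read from the alignment strings, and the substrate was rebuilt from the reads at 290 positions, with at least 134 reads and 95.7% agreement at each. Of 1148 matched overlap bases, 1147 equalled it.

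Differences were averaged with equal weight over strata and tested by exact two-sided permutation within strata, with Benjamini-Hochberg adjustment over the 6 measures of a comparison (3 for long against short overlaps) and a threshold of 0.05. Intervals invert the test. The tests were checked on simulated data. Named wholly coding joins and words are the 6 with the highest mean share over libraries with at least 10 such joins, the 6 DNA-PKcs -/- libraries. For heptamer-reaching joins the same rule left 1 library, where all ranks after the first were tied single lines, so only the first is named by it. Members, lists and tests were chosen with earlier results of these data known. Python 3.11.15, numpy 2.4.6, pandas 2.3.3, scipy 1.17.1 and matplotlib 3.10.9 were used. Alternatives were other overlap limits (3 and 5 bp), a shorter prey window, identical junctions counted once, no inserted joins, prey alignments of at least 30 bp, log odds, each sequencing run, a replicate block and each library left out. The alternative with matched overlaps alone, and the precise join counted once per library, were added after the data were seen.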

Additional observations from a re-analysis of the deposited data

How the results depend on the processing

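The 4 DNA-PKcs differences that passed the test kept their direction under every alternative run. They were no longer called only within a sequencing run, where the smallest p an exact permutation test can give is 0.5 (first G2 libraries) or 0.125 (second G2 and G1 libraries). Within those runs heptamer-reaching joins differed by -1.80 and -1.56, wholly coding joins by 2.79 and 2.42, the wholly coding share of long joins by 66.7 and 60.1, and the share without coding overlap after trimming by -58.7 and -52.2 percentage points. Leaving out 1 library gave ranges of -1.82 to -1.40, 2.28 to 2.70, 60.4 to 64.6 and -55.8 to -50.3, all called.

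The DNA-PKcs difference in all long joins was 0.883 and not called, but was called at 1.45 with identical junctions counted once, at 2.27 with overlaps of 3 bp or more, and at 0.883 with the replicate block (exact permutation test, adjusted p 0.0375). It turned to -3.81 without inserted joins, by construction of the denominator. The numbers coincide with the sequencing run of the G2 libraries. Deviations of same-numbered libraries, over 26 bins of overlap and prey loss, correlated between -0.554 and 0.461 over genotype pairs. These correlations had no common sign, but they cannot show that the run left long joins unchanged. The block changed no other call. The DNA-PKcs difference in long joins among wholly coding microhomology joins, called in 1 of 12 fits that left out a library (range 1.51 to 3.02), was -0.261 with overlaps of 3 bp or more.

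No CtIP difference was called under any alternative. With overlaps of 5 bp or more the signs turned for all long joins (0.0200), wholly coding joins (0.0875), long among coding microhomology joins (1.02), the wholly coding share (9.57) and the share without coding overlap (-13.5). With 3 bp or more, the last was -3.28 and long among coding microhomology joins 0.332. Heptamer-reaching joins turned to 0.0321 with prey positions up to 200 bp, 0.0728 without inserted joins, 0.0642 as log odds and -0.224 to 0.196 when a library was left out. In the first run alone CtIP values were 1.12 for all long, 0.984 for heptamer-reaching and 0.138 for wholly coding joins.

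For G2 minus G1, wholly coding joins (0.00799) turned to -0.00134 with uncut lines and short prey alignments left out, -0.696 and -0.148 at overlaps of 3 and 5 bp, -0.0970 with prey positions up to 200 bp, -0.243 without inserted joins, -0.128 as log odds, -0.0302 with matched overlaps alone and -0.204 to 0.220 with a library left out. At 3 bp or more the wholly coding share of long joins (-12.9) and the share without coding overlap (12.5) were called. Long among coding microhomology joins was 1.05 in the second run and -1.58 to 1.49 with a library left out.

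Losses over 20 bp, long minus 1 to 3 bp, were no longer called when a library was left out (prey 15.6 to 19.7, bait 7.31 to 10.2), at 5 bp or more (16.0 and 8.31), with at least 20 joins per class (15.1 and 7.17) or with matched overlaps alone (26.7 and 6.98), where fewer libraries remained. Repeat lines differed by -1.12, -0.362 and -0.0556 in the same 3 settings and by -0.567 to 0.987 with a library left out, and have no value with identical junctions counted once. Causes of the turned signs were otherwise not tested. Depth limits cells with DNA-PKcs most, with 14 wholly coding joins in 2251.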
